A study of Saccharomyces cerevisiae with 12 samples.

Results

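The wine strains EC1118 and M25 of the budding yeast Saccharomyces cerevisiae were compared while fermenting a synthetic grape juice to which lipids had been added. The comparison used 6 of the 12 arrays of the study, the 3 arrays of EC1118 in FSJ and the 3 arrays of M25 in FSJ, and covered 5360 genes. EC1118 is a commercial starter strain from Lallemand, and M25 is a wild-type strain kept in the culture collection of the University of Sassari. SJ is a synthetic juice with 200 g/l glucose, ammonium sulphate as the nitrogen source and no amino acids at pH 3.3, and FSJ adds ergosterol and oleic acid, each at 15 mg/l. All cells came from 24 h precultures in SJ at 28°C, were inoculated at 1000000 cells/ml and were harvested 60 h later. Each of the 4 groups of the study (EC1118 in FSJ, M25 in FSJ, EC1118 in SJ and M25 in SJ) had 3 biological replicates, and each strain is a single isolate, so the comparison is between these isolates.

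Wine yeasts ferment a juice rich in sugar and poor in oxygen, and sterols and unsaturated fatty acids, which yeast can make only with oxygen, become limiting unless the juice supplies them. Ergosterol and oleic acid cover that need. Wine strains can differ from one another in genes near chromosome ends, in nutrient transport and in cell wall mannoproteins. The probes of the array were designed on a laboratory reference strain. In a comparison of strains, fewer transcripts, a gene that is missing or divergent, and a probe that binds less well cannot be told apart.

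Signals are MAS5 signals in linear units, and a signal counted as above background if it was larger than 25% of all yeast signals on its array. That background was 20.5, 19.2 and 21.4 on the EC1118 arrays in FSJ and 21.7, 19.0 and 16.6 on the M25 arrays in FSJ. The median log2 signal was 7.15 ± 0.02 in EC1118 and 6.90 ± 0.01 in M25 (SD, n = 3 each), a difference of 0.24. The arrays of the strains did not overlap in it (exact two-sided permutation test, p = 0.1, the smallest that 3 arrays against 3 allow). EC1118 replicates 2 and 3 stood apart, and M25 replicate 2 did so in some measures. Array weights in limma, which are low for an array far from the others of its group, were lowest for EC1118 replicate 3 (0.43) and EC1118 replicate 2 (0.619) of all 12 arrays. M25 replicate 2 in FSJ was close to these at 0.629. Its 3' to 5' signal ratio of the control gene SPT15 was 5.64, against 2.61 and 2.39 on the other M25 arrays and 1.57 to 2.87 on the EC1118 arrays. The spiked control transcript BioDn gave 432 on EC1118 replicate 2, against 1072 and 1301 on the other EC1118 arrays and 1242 to 1446 on the M25 arrays. The score of replicate 2 on principal component 2, which held 13.3% of the variance, was -49.2, against -2.41 and 11.6 for the other EC1118 arrays. Log2 signals of EC1118 replicates correlated at 0.919 to 0.962 and those of M25 replicates at 0.97 to 0.977.

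A gene was called different at a Benjamini-Hochberg adjusted p under 0.05 in limma, and differences are EC1118 over M25 on the log2 scale. Of the 5360 genes, 1309 (24.4%) were higher in EC1118 and 556 (10.4%) were lower. The median difference of all genes was 0.17. Among these 1865 called genes the median size of the difference was 0.79, and 391 genes (7.29% of all genes) were higher and 210 (3.92%) lower by more than 2-fold. The split between higher and lower moved with the scaling of the arrays. Genes higher in EC1118 made up 70.2% of the calls on the deposited scale, 55.1% after quantile normalization (894 higher or 16.7% of genes and 729 lower or 13.6%, 30.3% in all) and 39.6% after centring each array on its median (705 higher or 13.2% and 1077 lower or 20.1%). In these scalings the median of all genes was 0.03 and -0.07. Under all 3 scalings 1198 genes were called the same way, 701 of them higher and 497 lower in EC1118. Without EC1118 replicate 2, 1169 genes (21.8%) were higher and 533 (9.94%) lower, and 1551 of the 1865 genes kept their call. Without EC1118 replicate 3, 1000 were higher and 467 lower.

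In SJ, the juice without lipids, 485 genes (9.05%) were higher and 486 (9.07%) lower in EC1118, and the lower ones numbered 317 without M25 in SJ replicate 1 and 322 without M25 in SJ replicate 2. Genes higher in EC1118 in both juices numbered 427, which is 32.6% of those higher in FSJ and 88% of those higher in SJ. The 293 genes lower in both were 52.7% of those lower in FSJ and 60.3% of those lower in SJ, and 3 genes were higher in FSJ but lower in SJ. Across the 5360 genes the differences in FSJ and SJ had a Pearson correlation of 0.782, as a description. The juices share no arrays here but share the probe sets, so a probe that reads one strain poorly does so in both.

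**Figure D1:**
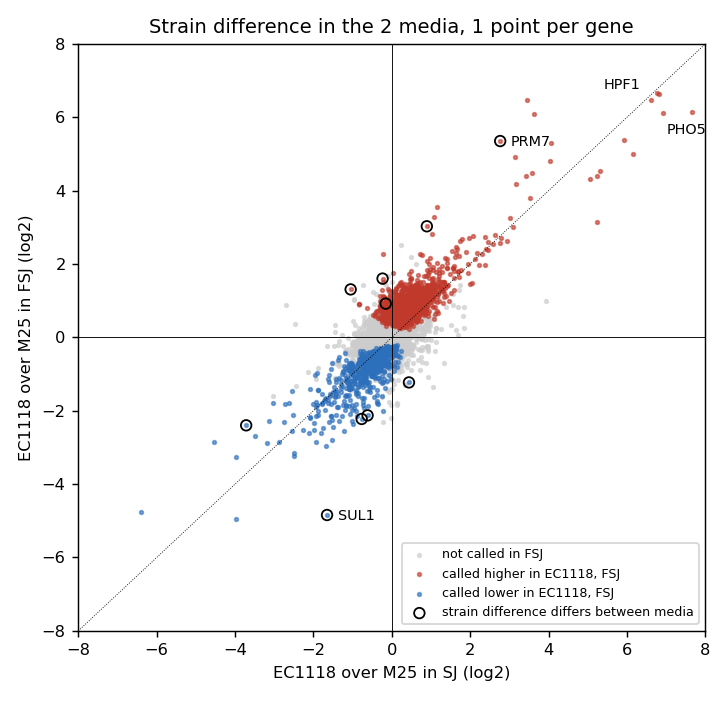
Strain difference of each of the 5360 genes in FSJ (vertical axis, EC1118 over M25, log2) against that in SJ (horizontal axis, log2), with genes called higher or lower in FSJ coloured and the 10 genes whose difference changed between the juices circled. HPF1 (6.47 in FSJ, 6.61 in SJ) lies on the dotted line of equal differences, while PRM7 lies above it and SUL1 below it.

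Of the genes measured above background on all 6 arrays, HPF1 differed most. HPF1 encodes a cell wall mannoprotein known in oenology as a haze-protective factor. Its signal was 3896, 4560 and 4890.5 on the EC1118 arrays, against 53.1, 48.1 and 49.3 on the M25 arrays. EC1118 thus carried 88.4 times the signal of M25, with replicates of each strain close together (log2 difference 6.47, SE 0.13, limma adjusted p = 3.29e-11). The repressible acid phosphatase gene PHO5 had signals of 2699, 2948 and 2114.5 in EC1118, against 75.1, 34.8 and 18 in M25. The M25 replicates of PHO5 spread widely and its lowest lay just above the background (log2 difference 6.15, SE 0.64, limma adjusted p = 2.71e-05). PRM7, a pheromone-regulated membrane protein gene, gave 2467, 2566 and 2092 in EC1118 and 58.2, 73.7 and 45.2 in M25. That is a 40.9-fold difference (log2 5.35, SE 0.19, adjusted p = 7.16e-09), and the other probe set of PRM7 gave 5.74.

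**Figure D2:**
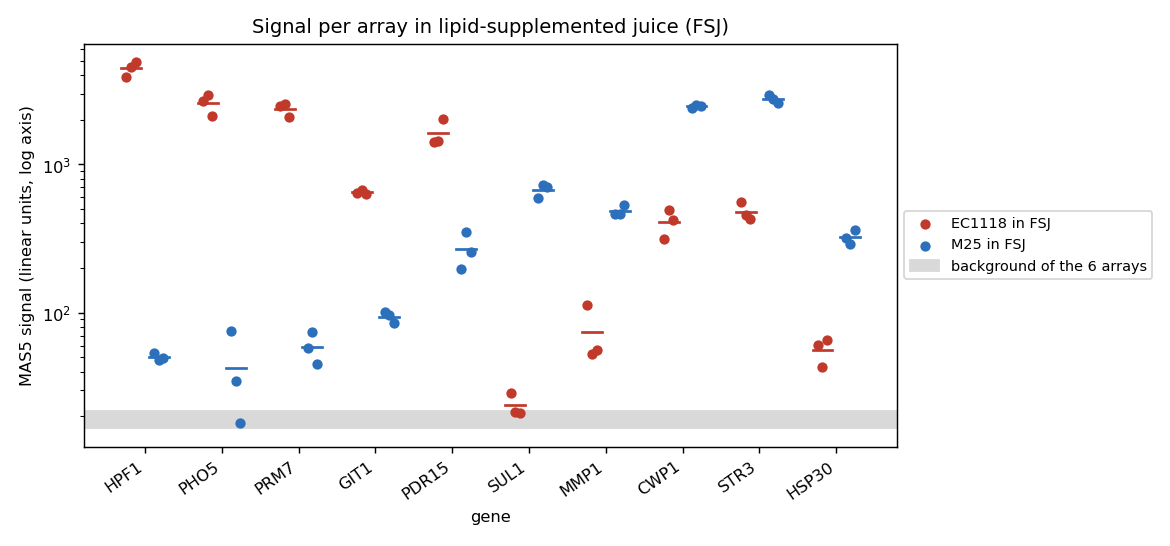
MAS5 signal (linear units, log axis) of 10 genes on each FSJ array, EC1118 on the left of each pair and M25 on the right, with bars at group means and the grey band over the backgrounds of the 6 arrays. Strains that do not overlap were a condition for naming all of these genes but SUL1, whose strains do not overlap either. Over all genes 31% were higher and 14.3% lower in EC1118 without overlap. HPF1, PHO5 and PRM7 are higher in EC1118 by 40.9-fold or more, and SUL1 reaches the background band in EC1118.

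The next genes higher in EC1118 differed by 4.84-fold to 6.92-fold. GIT1, the permease for glycerophosphoinositol, had signals of 637, 677 and 635 in EC1118, against 100.4, 96.8 and 85.0 in M25, tight in both strains (adjusted p = 1.18e-07). GND2, the minor isoform of 6-phosphogluconate dehydrogenase, had 521, 455 and 830 in EC1118 and 89.4, 88.0 and 81.9 in M25. PDR15, a plasma membrane multidrug pump of the ABC family, had 1427, 1439 and 2013 in EC1118, against 199, 353 and 258 in M25. Replicate 3 was the highest EC1118 array for GND2 and for PDR15, and separate strains were a condition for naming these genes. Others with roles were the acid phosphatase PHO3 (log2 2.62, and 3.27 without EC1118 replicate 3), the iron-siderophore mannoprotein FIT3 (2.40), the inhibitor of vacuolar proteinase A PAI3 (2.28) and the glutathione S-transferase GTT1 (2.28). VHS2 (2.73), ISF1 (2.70), PET18 (2.64), COS9 (2.46) and FMP10 (2.36) complete the 15 largest among genes with a standard name, and YML131W, which has none, would rank among them (2.41). COS9 belongs to a family of near-identical subtelomeric genes, and its other probe set gave 1.24. All 15 were also called higher in EC1118 in SJ.

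Among genes with a standard name that were lower in EC1118 and above background on all 6 arrays, MMP1, the high-affinity permease for S-methylmethionine, differed most. Its signals were 112.6, 53.0 and 56.1 in EC1118 and 463, 463 and 533 in M25, a difference of -2.81 (SE 0.37, adjusted p = 0.000137). CWP1, a mannoprotein of the cell wall, had 315, 494 and 423 in EC1118, against 2421, 2515 and 2479 in M25. CWP1 was thus 6.12-fold lower in EC1118, with M25 the more uniform strain (adjusted p = 1.43e-07). HSP30, a stress-induced membrane protein that restrains the plasma membrane proton pump, had 60.7, 43.2 and 65.1 in EC1118, against 318, 292 and 362 in M25. STR3, the cystathionine beta-lyase of methionine synthesis, had 555, 455 and 427 in EC1118, against 2925, 2780 and 2600.5 in M25. The differences were 5.82-fold for HSP30 and 5.81-fold for STR3, and strains that do not overlap were a condition for naming either gene here.

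The 15 largest differences in this direction are those of genes with a standard name. Of genes without one, 3 transfer RNA genes (-3.23, -2.86 and -2.69), YDR222W (-2.44), YNR068C (-2.27) and YKL068W-A (-2.17) would rank among them. The remaining genes of the 15 fall into a few functions. Arginine synthesis gave ARG8, the acetylornithine aminotransferase (-2.46), and ARG3, the ornithine carbamoyltransferase (-2.34). The EC1118 signals of ARG8 were uneven, at 278, 341 and 53.8, while M25 gave 780, 951 and 1150, and the difference was -1.62 without EC1118 replicate 3. Sulfur regulation gave MET28 (-2.37) and MET32 (-2.28), subunits and partners of the Met4 activator complex. The others were the mitochondrial metal carrier MMT1 (-2.40), the activator of the anaphase-promoting complex CDC20 (-2.22), the carnitine acetyltransferase YAT2 (-2.16), the monothiol glutaredoxin GRX4 (-2.14), the vacuolar transporter of basic amino acids VBA2 (-2.13), ARO5 (-2.31) and the oligopeptide transporter OPT2 (-2.21). OPT2 had 886, 884 and 206 in EC1118, against 2698.5, 2884 and 2051 in M25 (adjusted p = 0.0182). Its replicate 3 in EC1118 was the lowest by far, and OPT2 was not called when EC1118 replicate 3 was left out (adjusted p = 0.0668), M25 replicate 1 (0.0505) or M25 replicate 2 (0.0527). All 15 genes were called lower in EC1118 in SJ too.

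Some genes were above background in one strain on all 3 arrays and in the other on none. There were 25 such genes higher in EC1118, of which 15 were also at background on all 3 M25 arrays in SJ, and 17 lower in EC1118, of which 10 were at background on all 3 EC1118 arrays in SJ. For these genes the fold is a lower bound, the bright strain's mean log2 signal over the mean log2 background of the dim strain's arrays. BSC1 had 499.9, 522 and 565 in EC1118, against 17.7, 4.7 and 2.5 in M25, so it was at least 27.8-fold higher (adjusted p = 6.01e-06). SIP18, a hydrophilin of dried and osmotically stressed cells, had 363, 219 and 1216 in EC1118, against 17.8, 15.9 and 12.4 in M25, at least 24.2-fold higher (adjusted p = 1.27e-05). CSS3 had 136, 217 and 1070 in EC1118, against 4.7, 6.5 and 0.6 in M25, at least 16.7-fold higher (adjusted p = 7.82e-05). BSC1 was even over the EC1118 replicates, whereas replicate 3 of EC1118 carried the highest SIP18 and CSS3 signals. Without that array the bounds were 14.9-fold and 9.06-fold, and the CSS3 bound was 25.4-fold without EC1118 replicate 1. REE1 (at least 12.2-fold), the iron-siderophore mannoprotein FIT2 (at least 8.55-fold) and the zinc cluster regulator RDS1 (at least 6.81-fold) follow among genes with a standard name. Of genes without one, YDR034C-A (at least 29.1-fold), YHR214C-B (at least 20.7-fold), YBL005W-B (at least 15.4-fold) and YMR045C (at least 12.4-fold) had bounds in the same range, all through probe sets whose suffix marks shared probes. The probe sets of YDR034C-A disagreed, with fitted differences of 6.13, 1.90, 1.20 and -1.23.

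In the other direction CHA1, the catabolic serine and threonine deaminase, had 9.1, 17.1 and 4.2 in EC1118, against 252.0, 303 and 252 in M25. It was at least 13.2-fold lower in EC1118 (adjusted p = 1.51e-05). AQY3, an aquaglyceroporin gene, had 11.3, 13.4 and 15.6 in EC1118, against 149.7, 54.3 and 113.8 in M25, at least 4.79-fold lower (adjusted p = 0.000183). The other 4 with the largest bounds among genes with a standard name were the cardiolipin deacylase CLD1 (at least 3.3-fold), the daughter-specific wall gene DSE1 (at least 2.45-fold), securin PDS1 (at least 2.13-fold) and BSC5 (at least 2.03-fold). Of transfer RNA genes, 2 had bounds of 3.95-fold and 3.35-fold in this direction. Both directions thus held genes at background on the FSJ arrays of one strain, although BSC1 and SIP18 were above background on all 3 M25 arrays in SJ. The 42 genes with a standard name and the largest folds or bounds kept their call without EC1118 replicate 2, and 40 of them were called the same way in SJ.

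Several of the most different genes were neighbours on a chromosome, a pattern seen after the values were known. Of the 95 protein-coding genes called with a fitted difference over 4-fold, 33 (34.7%) stood next to another such gene with the same direction. Neighbours were taken among measured protein-coding genes in the order of the reference strain. These 33 genes formed 13 runs, 9 higher and 4 lower in EC1118. Fitted differences were counted here, also for genes at background in 1 strain. The bounds were only 1.28-fold for YCR099C beside GIT1, 1.05-fold for YHR213W beside YHR214C-B, and 1.23-fold for AGP3 beside AQY3. Each of these runs held 2 genes and so rested on a dim gene. YMR175W-A, in the run of PAI3 and SIP18, averaged 18.6 in EC1118 and 3.7 in M25. The longest run held 7 genes on chromosome XV, from FRE3 to FDH1. In the order of measured genes it holds the ferric reductase FRE3, the mannoproteins FIT2 and FIT3, YOR385W, the DNA photolyase PHR1, YOR387C and the formate dehydrogenase FDH1. Genes without a measurement were skipped, so members of a run need not be adjacent on the chromosome. The photolyase gene PHR1 had 92.0, 95.4 and 111.7 in EC1118, against 0.9, 0.5 and 0.7 in M25, and was at least 5.23-fold higher. FRE3 had 67.5, 33.5 and 31.9 in EC1118, against 0.6, 1.2 and 0.3 in M25, and was at least 2.19-fold higher. M25 was at background on all 3 arrays for every gene of the run except FIT3. YOR387C rested on EC1118 replicate 3, with 32.7, 12.4 and 1348 in EC1118, against 1.7, 0.4 and 0.2 in M25.

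**Figure D3:**
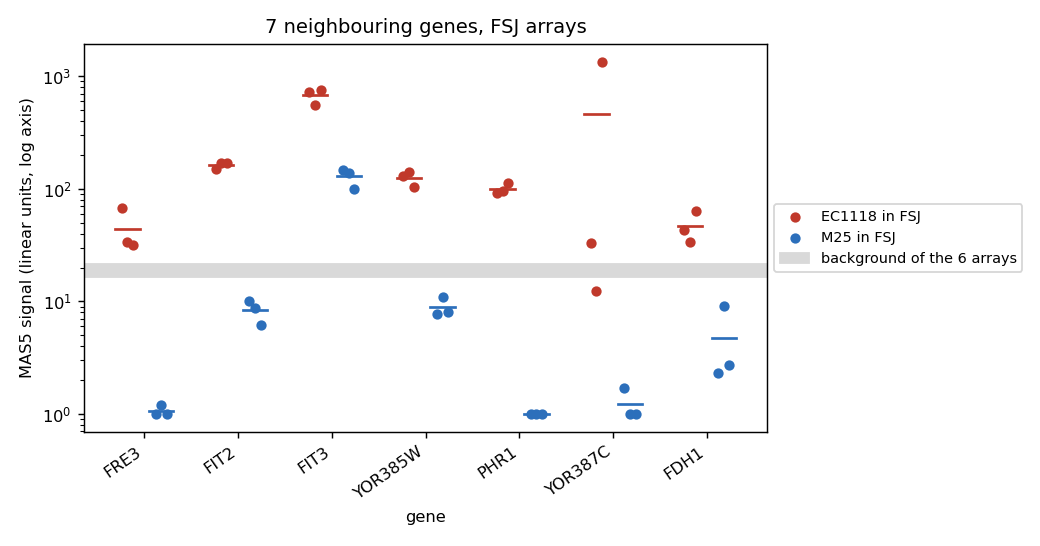
MAS5 signal (linear units, log axis, signals under 1 drawn at 1) of the 7 neighbouring genes on each FSJ array, EC1118 on the left of each pair and M25 on the right, with bars at group means and the grey band over the backgrounds. M25 lies under the band for all genes but FIT3, and YOR387C in EC1118 spans 12.4 to 1348.

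The shorter runs included PHO3 with PHO5 on chromosome II and the pair PRM7 and BSC1. CSS3, the enterobactin transporter gene ENB1 and HPF1 also formed a run, as did genes at PAI3 and SIP18. ADH7, an NADPH-dependent alcohol dehydrogenase, stood beside RDS1, with 245, 209 and 250.4 in EC1118, against 8.5, 21.0 and 7.7 in M25. Of the M25 arrays of ADH7, 1 was above background. Lower in EC1118 were the neighbours VBA2 and the sulfate permease SUL1, the pair AGP3 and AQY3, ARO5 with CDC20, and DSE4 with YNR068C. AGP3, a low-affinity amino acid permease, had 6.7, 5.7 and 3.4 in EC1118, against 30.7, 17.0 and 30.2 in M25, all near or under background, and its call was lost when signals under background were raised to it (adjusted p = 0.154).

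The mitochondrial ribosome, which translates the few proteins encoded in mitochondrial DNA, was higher in EC1118 for most of its members. Of 70 measured genes for its proteins, 57 were higher in EC1118 and 0 were lower, with a median difference of 0.86 beside 0.17 for all genes, of which 24.4% were higher and 10.4% lower. MRPL31, of the large subunit, had 222, 278 and 312 in EC1118, against 55.4, 67.3 and 53.1 in M25 (log2 2.20, SE 0.19, adjusted p = 8.07e-06). The strains were separate and the fold was 4.6. MRPL11 (1.90) and MRPL13 (1.16), of the same subunit, and MRPS8 (1.88), of the small subunit, had the other smallest p-values. With quantile normalization 50 of the 70 were higher, with median centring 47, and without EC1118 replicate 2, 56. In SJ the count was 44, with a median of 0.67. Oxidative phosphorylation genes (respiratory chain and ATP synthase) turned with the scaling. Of 40 measured, 6 were higher, among them the succinate dehydrogenase subunit SDH1 (1.01) and the ATP synthase subunit ATP1 (0.60), and 2 were lower, among them COX9 (-0.77). Their median was 0.07. The counts were 5 higher and 6 lower with quantile normalization, 4 higher and 9 lower with centring, and 1 lower without EC1118 replicate 1, M25 replicate 1 or M25 replicate 2.

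**Figure D4:**
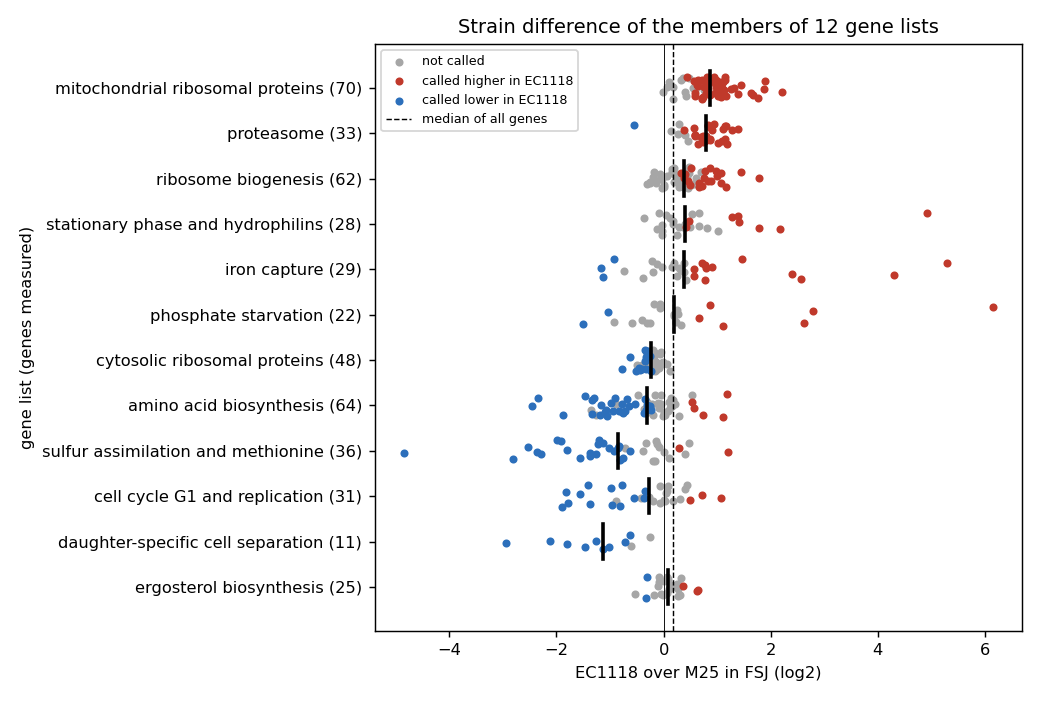
Strain difference in FSJ (EC1118 over M25, log2) (as fitted) of every measured gene of 12 lists, 1 point per gene, coloured where called, with a black bar at each list's median and a dashed line at the median of all genes (0.17). Mitochondrial ribosomal (median 0.86) and proteasome genes lie to the right, and sulfur (median -0.84) and cell separation genes (median -1.13) to the left.

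Genes of the proteasome, the protease complex that degrades ubiquitin-tagged proteins, were higher in EC1118 for 27 of 33 members, with a median of 0.78. Of all genes 24.4% were higher and 10.4% lower. RPT1, an ATPase of the proteasome's regulatory base, had 1306, 1442 and 1783 in EC1118, against 720, 659 and 599 in M25. That was a separate 2.28-fold difference (adjusted p = 3.9e-05). RPN8, a lid subunit, differed by 1.39, and the core subunits PRE10 and PUP1 by 0.94 and 1.16. The single gene lower in EC1118 was RPN4, the transcription factor that activates proteasome genes (-0.56, adjusted p = 0.0316). Its arrays overlapped, with 455, 283 and 340 in EC1118 and 509, 608 and 454.0 in M25, and it was not called without EC1118 replicate 2 (adjusted p = 0.109), EC1118 replicate 3 (0.0744), M25 replicate 1 (0.0648) or M25 replicate 2 (0.109). The count of proteasome genes higher in EC1118 was 27 with quantile normalization, 23 with median centring and 18 in SJ.

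Of 62 genes for ribosome assembly, 21 were higher in EC1118 and 0 lower (median 0.39), beside 24.4% higher and 10.4% lower of all genes. The higher ones were led by SDA1 (1.77), the snoRNP protein NOP58 (1.44) and UTP20 (1.07), all in nucleolar or pre-ribosomal particles. The other probe sets of NOP58 gave smaller differences, at 0.30, 0.79 and 0.49. The count of 21 fell to 12 with quantile normalization, where 16.7% of all genes were higher. It fell to 8 with centring (3 lower), where 13.2% were, and to 11 without EC1118 replicate 2, where 21.8% were. Of 48 genes for ribosomal proteins themselves, 0 were higher and 17 lower (median -0.23), among them RPS0A (-0.44), RPL22A (-0.36), RPS9A (-0.62) and RPL29 (-0.40). The number of ribosomal protein genes lower in EC1118 was 7 with quantile normalization (13.6% of all genes were lower), 43 with centring (20.1%) and 10 without M25 replicate 1, so it depended on the scaling and on 1 array. Many ribosomal protein genes have a near-identical copy whose transcripts the probes may share. Of 86 transfer RNA genes on the array, 39 were lower and 1 higher in EC1118 (median -0.48), and 36 were lower in SJ. How far the labelled RNA represents such short transcripts was not tested.

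Sulfur genes were lower in EC1118 in FSJ. The list covers sulfate uptake, reduction to sulfide, and synthesis of cysteine and methionine, a pathway that in wine also yields hydrogen sulfide. Of 36 measured genes 22 were lower and 2 higher, with a median of -0.84, beside 10.4% lower and 24.4% higher of all genes. SUL1, a high-affinity sulfate permease, had 28.8, 21.4 and 20.9 in EC1118, against 597, 723 and 706 in M25. In EC1118 it was at or near the background, above it on 2 of 3 arrays, and it was 28.7-fold lower than in M25 (log2 -4.84, SE 0.17, adjusted p = 7.16e-09). The other sulfate permease, SUL2, differed by -1.20.

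**Figure D5:**
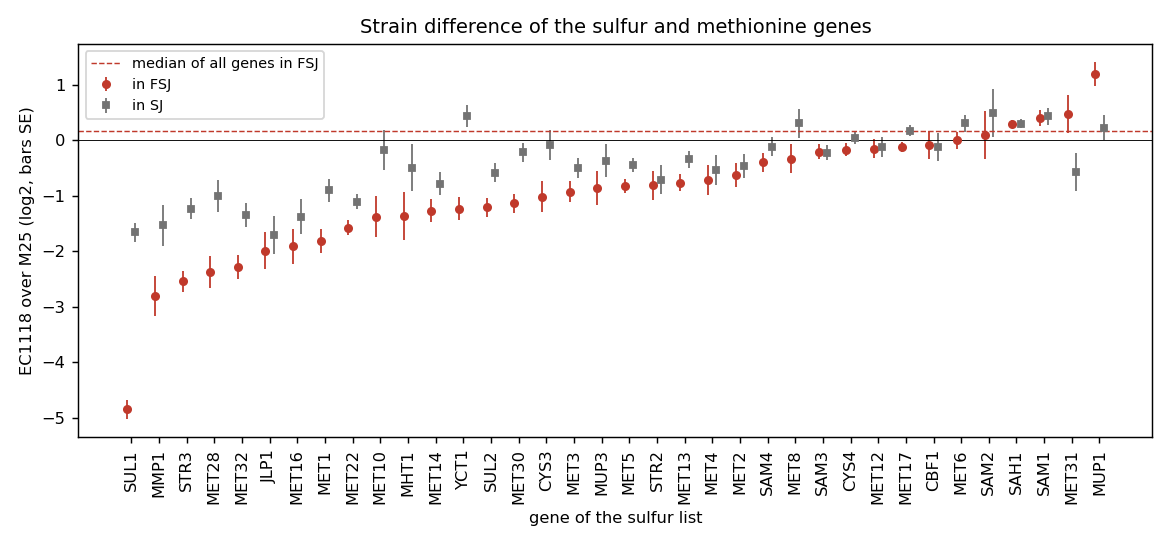
Strain difference (EC1118 over M25, log2, bars SE of the fit) of the 36 measured sulfur and methionine genes, circles in FSJ and squares in SJ, ordered by the difference in FSJ, with a dashed line at the median of all genes in FSJ (0.17). SUL1 is the lowest at -4.84 in FSJ and MUP1 the highest at 1.19.

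Along the pathway, the sulfate activation and reduction genes MET14 (-1.27), MET22 (-1.57) and MET16 (-1.91) were lower in EC1118, as were the sulfite reductase subunits MET5 (-0.83) and MET10 (-1.37). MET1, which makes the siroheme cofactor of sulfite reductase, differed by -1.81. MET17, the enzyme that joins sulfide to homoserine, was not called (-0.12). Transsulfuration to and from cysteine gave STR3 (-2.54) and CYS3 (-1.01). Of transporters for organic sulfur, MMP1 and the cysteine transporter YCT1 (-1.23) were lower, while MUP1, the high-affinity methionine permease, was higher, with 119.2, 71.3 and 118.4 in EC1118, against 51.1, 39.0 and 42.2 in M25 (1.19, adjusted p = 0.00149). The only other member higher in EC1118 was SAH1, of the methyl cycle (0.29), which was not called with centring. With quantile normalization 23 sulfur genes were lower in EC1118, with centring 27 and without EC1118 replicate 2, 20. Of all genes 13.6%, 20.1% and 9.94% were lower in these settings. In SJ 12 sulfur genes were lower, beside 9.07% of all genes, and the sulfur median was -0.40.

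A list of 12 genes for sulfite and sulfide handling overlaps this one. In it 8 were lower and 1 was higher, beside 10.4% lower and 24.4% higher of all genes. The lower ones were led by SKP2 (-1.63), the aspartate kinase HOM3 (-1.35) and the cysteine desulfhydrase gene IRC7 (-1.19). The one higher was FZF1, the activator of the sulfite pump gene SSU1 (0.57, adjusted p = 0.0182). Without EC1118 replicate 3, 2 were higher. The FZF1 call was lost with quantile normalization (adjusted p = 0.147), with centring (0.143) and without EC1118 replicate 1 (0.0641) or M25 replicate 3 (0.071). SSU1 itself was not called (0.31).

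Amino acid synthesis was lower in EC1118 more often than higher, in a juice that supplied no amino acids. Of 64 measured genes 29 were lower and 5 higher, with a median of -0.32, beside 10.4% lower and 24.4% higher of all genes. TRP4, of tryptophan synthesis, had 338, 414 and 213 in EC1118, against 951, 1257 and 1220 in M25 (-1.87, adjusted p = 5e-05). HIS3 of histidine synthesis (-1.19) and the threonine aldolase GLY1 (-1.05) were lower as well, and so was ARO2, the chorismate synthase (-0.72). LEU1, the isopropylmalate isomerase of leucine synthesis, ran the other way, with 2181, 1891 and 1907 in EC1118, against 926, 972 and 759 in M25 (1.17, adjusted p = 9.25e-05). Quantile normalization gave 26 lower, beside 13.6% of all genes, and centring 39, beside 20.1%. In SJ 19 were lower, beside 9.07% of all genes.

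Nitrogen catabolite repressed genes, which yeast switches on when good nitrogen sources run out, went both ways. Of 38 measured, 9 were higher and 6 lower in EC1118 (median 0.01), against 7 and 11 with quantile normalization and 6 and 14 with centring. For all genes the shares were 24.4% higher and 10.4% lower. The ammonium permease MEP1 (1.31), the GABA transaminase UGA1 (1.09), DAL3 of allantoin breakdown (1.04) and the general amino acid permease GAP1 (0.82) were higher. DAL5, the allantoate permease, had 491, 699 and 397.5 in EC1118, against 2206, 1937 and 1974.5 in M25, a difference of -1.98 (adjusted p = 8.97e-06). Its 3 probe sets disagreed, at -1.98, -1.99 and 0.92. Of 18 amino acid permease and sensor genes 6 were higher, among them the sensor protease SSY5 (1.14) and the branched-chain permease BAP2 (0.84), and 4 were lower, among them AGP3 and the transcription factor STP2 (-0.86). These counts were 4 and 4 with quantile normalization and 3 and 4 with centring. Only 3 were higher without EC1118 replicate 1, M25 replicate 3 or M25 in SJ replicate 3, and 2 were lower without EC1118 replicate 3 or M25 replicate 2.

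The acid phosphatase genes PHO5 and PHO3 and the permease gene GIT1 were 3 of the 15 largest differences in favour of EC1118. Of 22 measured phosphate genes, 6 were higher and 2 lower in EC1118 (median 0.19), and with centring 5 and 5. The uncentred counts lay near the shares of all genes, 24.4% higher and 10.4% lower (median 0.17). PHO5 and GIT1 were described above, the polyphosphate synthase subunit VTC4 was higher (0.86), and the low-affinity phosphate transporter PHO87 was higher too (1.11). Lower in EC1118 were the vacuolar alkaline phosphatase PHO8 (-1.51) and the high-affinity phosphate transporter PHO84 (-1.03). The phosphate-regulated genes PHO5 and PHO84 thus lay on opposite sides. Of 18 thiamine and pyridoxine genes 8 were higher, among them PET18, THI20 (0.84) and THI22 (1.51), and 1 was lower. The higher ones numbered 5 with centring (3 lower) and without EC1118 replicate 2 or M25 replicate 1, and the lower one lost its call without EC1118 replicate 1, EC1118 replicate 2 or any 1 of the M25 arrays in FSJ. PET18 had 1782, 2097 and 786 in EC1118, against 210, 248 and 234 in M25.

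Of 29 iron genes 12 were higher in EC1118 and 3 lower (median 0.38), beside 24.4% and 10.4% of all genes. FIT2, FIT3, FRE3 and ENB1, all in the runs of neighbours, belong here, and so do the copper ATPase CCC2 (1.46) and the siderophore transporter ARN1 (0.79). The iron-sulfur scaffold gene ISU1 was lower (-1.18). With quantile normalization 8 were higher and 5 lower, and with centring 7 and 5. Among copper and zinc genes 3 were higher and 5 lower of 18, with the copper transporter CTR1 higher (1.09) and CTR3 lower (-0.70). Without EC1118 replicate 2, 5 of them were higher, and without M25 replicate 2, 3 were lower.

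Genes that separate daughter from mother cells after division were lower in EC1118. Of 11 measured 9 were lower and 0 higher, with a median of -1.13, beside 10.4% lower and 24.4% higher of all genes. DSE2, a secreted wall glucanase-like protein expressed in daughters, had 105.2, 176 and 85.2 in EC1118, against 544, 467 and 504 in M25 (-2.12, adjusted p = 2.57e-05). The wall protein genes PRY3 (-1.47) and SCW11 (-1.26) and the chitinase CTS1 (-1.03) were lower as well. The same 9 of 11 count was found with quantile normalization and without EC1118 replicate 2, and 8 were lower in SJ. DSE4, the endoglucanase of this group, had 93.3, 74.3 and 12.1 in EC1118, against 355, 326 and 335 in M25 (-2.95, and -2.02 without EC1118 replicate 3). In RNA from whole cultures, fewer cells at a stage of the division cycle and less RNA per cell cannot be told apart.

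Cell cycle genes of G1 and replication were lower for 13 of 31 members and higher for 3 (median -0.26). Of all genes 10.4% were lower and 24.4% higher. Lower were the histone gene HTB2 (-1.41), the G1 cyclin CLN2 (-1.38) and the repressor YOX1 (-1.55), and higher were the replication factors MCM2 (0.71) and CDC6 (1.07). Securin PDS1 and CDC20, both acting at anaphase, were lower as given above. Among 16 wall proteins of aerobic cells 7 were lower and 3 higher. CWP1, SRL1 (-2.11) and PIR1 (-1.59) were lower, and FIT3 and FIT2 higher. Of 15 flocculins and adhesins 5 were higher, with HPF1, PRM7, BSC1 and the regulator MGA1 (2.71, above background on 1 of 3 M25 arrays) first, and 2 were lower, or 1 without M25 replicate 1 or 2. The flocculin and adhesin counts lay near the shares of all genes. FLO11, the mucin needed for flor and pseudohyphae, was not called (-0.19).

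The added ergosterol and oleic acid can replace products of lipid synthesis genes. Of 25 ergosterol synthesis genes 3 were higher and 2 lower (median 0.08). The mevalonate steps ERG20 (0.62) and MVD1 (0.64) were higher, while the 2 lower genes had small differences. The sterol demethylase ERG11 (-0.02) and the reductase HMG1 (0.06) were not called. The counts were 4 higher and 0 lower with quantile normalization and 2 and 6 with centring, and 0 or 1 were lower without EC1118 replicate 1, EC1118 replicate 3, M25 replicate 1 or M25 replicate 2. Of 25 genes for sterol uptake, esters and regulation 5 were higher and 5 lower, against 1 and 6 with quantile normalization and 0 and 9 with centring. The higher ones numbered 3 without EC1118 replicate 1 or 2, 2 without EC1118 replicate 3 and 1 without M25 replicate 3. UPC2, the activator of sterol uptake, was lower (-0.97), as were the sterol importer PDR11 (-1.02) and PRY2, a sterol-binding secreted protein (-1.91). Of 21 fatty acid genes 6 were higher, led by the acyl-CoA synthetase FAA2 (1.49) and the elongase ELO1 (0.78), and 0 lower. Their median was -0.09, beside 0.17 for all genes, of which 24.4% were higher and 10.4% lower. The split of the fatty acid genes turned with the scaling. It was 5 higher and 2 lower with quantile normalization and 3 higher and 8 lower with centring. The desaturase OLE1, which oleic acid represses, was not called (-0.21).

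Of 20 beta-oxidation genes, which break down fatty acids in peroxisomes, 9 were higher in EC1118 and 1 lower (median 0.39). All genes together gave 24.4% higher and 10.4% lower. FAA2, the carnitine acetyltransferase CAT2 (1.18) and the fatty acid importer PXA2 (at least 1.95-fold, with M25 at background) were higher, and the mitochondrial carnitine carrier CRC1 was lower (-2.00). With quantile normalization 4 were higher, beside 16.7% of all genes, and with centring 3, beside 13.2%. The seripauperins (PAU), wall-associated proteins of anaerobic and wine fermentation, had 10 genes measured through their own probe sets. Of these 1 was higher, PAU17 (1.02), and 4 lower, with PAU7 at -1.62. Only 2 were lower with quantile normalization and without EC1118 replicate 2 (2 higher), EC1118 replicate 3, M25 replicate 1, M25 replicate 3 or M25 in SJ replicate 3. Members of this family are nearly identical, and their probe sets may share transcripts. Of 6 anaerobic DAN and TIR mannoprotein genes 1 was lower, TIR3 (-0.50), against 4 with centring and 2 without M25 replicate 3, and DAN1 was not called (-0.19).

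Genes of aroma formation went both ways, with 7 of 21 higher and 7 lower (median -0.04), and 4 and 8 with centring. For all genes the shares were 24.4% higher and 10.4% lower. ADH7 and ADH6 (1.90), which reduce aldehydes to fusel alcohols, were higher in EC1118. ARO10, the decarboxylase that starts phenylethanol formation, was lower (-2.10), and so was the pyruvate decarboxylase isoform PDC6 (-2.01). Of the alcohol acetyltransferases that make acetate esters, ATF2 was lower (-1.61) and ATF1 higher (0.62). ATF1 lost its call with quantile normalization (adjusted p = 0.0554), with centring (0.172) and without EC1118 replicate 1 (0.106), EC1118 replicate 3 (0.0564) or M25 replicate 2 (0.0955). Glycolysis and ethanol genes differed little, with 3 of 23 higher and 2 lower (median 0.06), and PDC1 (0.07) and ADH1 (-0.13) were not called. With quantile normalization 8 of them were higher, with centring 1 was higher and 3 lower, and 1 was lower without EC1118 replicate 3, M25 replicate 1, M25 replicate 3 or M25 in SJ replicate 3. Of 20 glycerol and acetate genes 7 were higher, among them the glycerol kinase GUT1 (2.07) and the glycerol phosphatase GPP2 (0.93), and 2 were lower, or 1 without EC1118 replicate 3, M25 replicate 1 or M25 replicate 2. GPD1, the first step of glycerol synthesis, was not called (-0.13). Among 18 hexose transport and sensing genes 3 were higher and 2 lower, with the low-affinity carrier HXT1 lower (-0.48) and HXT3 not called (0.17). These counts were 3 and 4 with quantile normalization and 1 and 4 with centring, and 1 was higher without EC1118 replicate 3, M25 replicate 1, M25 replicate 2 or M25 in SJ replicate 3.

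Beside the shares of all genes (24.4% higher, 10.4% lower), stress and storage genes gave the following counts. Of 28 stationary phase and hydrophilin genes 8 were higher and 0 lower (median 0.41), led by SIP18, DDR48 (1.78), the glutamate decarboxylase GAD1 (2.17) and GRE1 (1.38). Of 32 oxidative stress genes 8 were higher, with GTT1, the peroxiredoxin PRX1 (1.14) and the cytochrome c peroxidase CCP1 (1.23), and 1 lower, GRX4, while 5 were higher and 4 lower with centring, 5 higher without EC1118 replicate 3 and 2 lower without M25 replicate 2. Among 24 heat shock and chaperone genes 8 were higher and 3 lower, with the mitochondrial co-chaperone MDJ1 higher (1.88), and HSP30 and BTN2 (-1.02) lower. The stress marker HSP12 was not called (0.12). Of 20 trehalose and glycogen genes 4 were higher, among them the glycogen phosphorylase GPH1 (2.22) and the debranching enzyme GDB1 (0.77), and the phosphoglucomutase PGM1 was lower (-1.21). Without EC1118 replicate 2, 8 of the 20 were higher, and without M25 replicate 3, 7. Efflux genes gave 7 of 23 higher, with PDR15 and its regulators PDR1 (1.22) and PDR3 (0.94), and 3 lower, with the polyamine pump TPO2 (-1.37) and the acid transporter AQR1 (-1.27). The higher ones numbered 4 with centring (5 lower), 3 without M25 replicate 1 and 4 without EC1118 replicate 1.

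The remaining lists are small or had calls in both directions, beside shares of 24.4% higher and 10.4% lower for all genes. Purine synthesis had 3 of 18 higher and 4 lower, the TCA cycle 5 of 24 higher and 3 lower, and heme synthesis 2 of 10 higher and 1 lower. The kynurenine route to NAD had 4 of 14 higher and 2 lower, biotin genes 3 of 6 higher and 1 lower, and cation transport 1 of 19 higher and 2 lower. With centring these counts were 0 and 10 for purine synthesis, 1 and 5 for the TCA cycle, 1 and 2 for heme, 3 and 3 for the kynurenine route, 1 and 1 for biotin, and 1 and 7 for cation transport. Without EC1118 replicate 3 the higher ones were 2 for the TCA cycle and 1 for biotin, and without EC1118 replicate 2 they were 3 for cation transport. Maltose, sucrose and galactose genes had 2 of 12 higher and 1 lower. The one lower was ZNF1, a zinc cluster regulator of respiration genes, with 0.6, 0.4 and 2.9 in EC1118, against 30.1, 42.2 and 46.0 in M25. Of the mating genes 2 of 21 were higher and 3 lower, including the a-factor gene MFA2 (-1.66), but 0 were higher and 5 lower under quantile normalization and centring, and 1 was lower without M25 replicate 1. Of 4 aquaporin and aquaglyceroporin genes, FPS1 (0.63) and AQY1 (0.98) were higher and AQY3 lower, while AQY2 was not called (0.03). AQY1 lost its call with quantile normalization (adjusted p = 0.0596), with centring (0.0578) and without EC1118 replicate 1 (adjusted p = 0.0536), EC1118 replicate 3 (0.0664) or M25 replicate 2 (0.0635). Of 7 COS genes 2 were higher and 0 lower (3 lower with centring). For the subtelomeric helicases 0 genes were measured through probe sets of their own.

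The strain difference in FSJ was set against that in SJ in the same fit. The difference between the juices was called for 6 genes in the positive direction (0.112%) and 4 in the negative (0.0746%). With any 1 of the 12 arrays left out these counts were 1 to 5 and 1 to 6. The strongest was SUL1. In SJ its mean was 17.1 in EC1118, against 53.6 in M25, while in FSJ M25 averaged 675 ± 68.2 and EC1118 23.7 ± 4.42 (SD, n = 3). The strain difference was thus -4.84 in FSJ and -1.65 in SJ, a change of -3.19 (SE 0.24, adjusted p = 0.000173). PRM7 showed the opposite, with 5.35 in FSJ and 2.77 in SJ, a change of 2.59 (SE 0.27, adjusted p = 0.00216). Both were called under every alternative tried.

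The other 8 lay closer to the threshold, and none kept its call under every alternative. VBA2 lost it in 5 of the 22 alternatives run, CDC20, MMT1 and PEX19 in 14, YVC1 and YLF2 in 15, and RIT1 and YCT1 in 16. Leaving out any 1 of the 12 arrays ended the calls of CDC20, RIT1 and YCT1. VBA2, the neighbour of SUL1, changed by -1.51 (adjusted p = 0.0145), CDC20 by -1.46 (adjusted p = 0.0441) and YCT1 by -1.67 (adjusted p = 0.0486). PEX19, the import receptor for peroxisomal membrane proteins, changed by 1.84, and the vacuolar cation channel gene YVC1 by 2.36. MMT1 changed by 1.32, with the strain difference smaller in FSJ (-2.40) than in SJ (-3.72). RIT1, which modifies the initiator transfer RNA, changed by 1.08, and YLF2 by 2.14 (adjusted p = 0.0441 for these 5 genes). YLF2 was not above background on any M25 array in FSJ, and its change was -0.045 when signals under background were raised to it. The probe sets of YVC1 gave 1.31, 0.17 and 0.60 in FSJ.

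Of 25 genes named for their relevance to wine yeast, 23 were measured, and 7 were higher, 3 lower and 13 not called in FSJ. Beside those given above, INO1, the first enzyme of inositol synthesis, was higher (0.25, adjusted p = 0.0402), a call lost in 14 of the 23 alternatives, among them the omission of any of 9 arrays. The plasma membrane proton pump PMA1 was not called (0.06). CUP1-1 and ENA1 had probe sets assigned to several genes only and were not used.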

How the data were processed

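RNA from 12 cultures was measured on one-colour Affymetrix yeast arrays, 1 array per culture. Each deposited value is a linear intensity, the MAS5 signal of a probe set on an array, per the submitters' processing notes. The MAS5 version and scaling target are not stated in the sources used here. The trimmed mean (2nd to 98th percentile) was 300.2 to 300.3 on all 12 arrays, so no further scaling was applied.

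Of 9335 probe sets, 60 controls were left out, and probe sets above background (percentile 25 of the 9275 yeast signals of an array) on at least 3 of 12 arrays were kept. This left 7349 probe sets and 5360 genes named by probe sets with 1 symbol. For the 257 genes with several probe sets, the brightest stood for the gene. Of the kept probe sets, 1245 carry a suffix that marks shared probes. Gene names, types and neighbours follow assembly R64, without coordinates or sequences.

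Log2 was taken with signals under 1 raised to 1. The model was limma's (version 3.58.1, R 4.3.3), with a mean for each of the 4 groups, all 12 arrays in the fit and eBayes moderation that follows intensity, and Benjamini-Hochberg adjustment over the 7349 probe sets and a threshold of 0.05. Every adjusted p is from this fit unless a setting is named, and SE comes from it too. Where a strain was under background on all 3 arrays, the fold is a bound. With these genes at their bounds the medians of all lists were the same.

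The text names the 15 largest called differences per direction among genes with a standard name, above background on all 6 FSJ arrays, not overlapping and also called with quantile normalization. It also names 6 per direction by bound, again with a standard name, up to 4 members per list by smallest p, 6 per direction in the contrast between juices, and 25 genes of wine yeast physiology. Further members named along the sulfur pathway, in the lists and in the runs of neighbours were chosen after their values were seen. The 44 lists and the comparison were chosen with earlier results of these data known. Alternatives were quantile normalization, median centring, log2(signal + 16), signals raised to background, other filters, a block for the replicate number, array weights, eBayes without an intensity trend, averaging the probe sets of a gene, a fit of only the arrays of 1 juice, and the omission of each array in turn. In FSJ the deviations of arrays from their group means correlated at 0.0975, 0.116 and -0.005 between same-numbered replicates of the strains. Between other replicates they correlated at -0.158 to 0.11. With 3 replicates these values cannot tell whether the numbers pair the cultures, and the main fit had no block. The number of arrays limits the precision.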

Additional observations from a re-analysis of the deposited data

Results flagged for a closer look

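For 10 genes the strain difference in FSJ differed from that in SJ by the test of that change in limma (adjusted p from 0.000173 to 0.0486). SUL1 changed by -3.19 on the log2 scale and PRM7 by 2.59. VBA2 changed by -1.51, CDC20 by -1.46 and YCT1 by -1.67. YVC1 changed by 2.36, YLF2 by 2.14, PEX19 by 1.84, MMT1 by 1.32 and RIT1 by 1.08. These are 0.187% of the 5360 genes tested. The change was called under all 22 alternatives run for SUL1 and PRM7. VBA2 lost the call in 5 of them, CDC20, MMT1 and PEX19 in 14, YVC1 and YLF2 in 15, and RIT1 and YCT1 in 16, most of these with 1 array left out.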

How the results depend on the processing

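Of 167 called genes named with a value for FSJ, 156 kept their call and direction under all 23 alternatives, and AGP3, AQY1, ATF1, CYS3, FZF1, INO1, MET10, OPT2, RPN4, SAH1 and YOR387C lost the call under at least 1. The count of genes higher in EC1118 in FSJ (1309) was 705 with median centring and 852 with only the groups compared, and 1000 to 1285 with 1 array left out. The count lower (556) was 1077 with median centring and 436 to 549 with 1 array left out. In SJ the count higher (485) was 744 with array weights and 333 to 571 with 1 array left out, and the count lower (486) was 799 with array weights and 317 to 560. For the change between juices, the positive count (6) was 1 with quantile normalization, 3 with log2(signal + 16) and 1 to 5 with 1 array left out. The negative count (4) was 35 with median centring, 2 with no filter and 1 to 6 with 1 array left out. With the replicate number as a block, the change between juices was called for 1 gene in each direction. Whether that number pairs the cultures could not be told.

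The cause of these shifts was not tested. Genes not called in FSJ turned direction as follows. Quantile normalization gave 0.0059 for ADH1, -0.13 for AQY2, 0.11 for ERG11, -0.085 for HMG1, -0.10 for HSP12 and 0.00430 for MET17. Median centring gave -0.21 for AQY2, -0.18 for HMG1, -0.12 for HSP12, -0.071 for HXT3, -0.17 for PDC1 and -0.18 for PMA1. Array weights gave -0.016 for AQY2, 0.045 for GPD1 and -0.067 for HSP12. With 1 array left out, ADH1 spanned -0.22 to 0.058, AQY2 -0.13 to 0.17, ERG11 -0.12 to 0.042, FLO11 -0.39 to 0.081, GPD1 -0.52 to 0.30, HMG1 -0.075 to 0.15 and HSP12 -0.72 to 0.84. The change of YLF2 between juices was -0.045 with signals raised to the background. Signals near background limit what can be said of dim genes.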
